A study of Arabidopsis thaliana with 8 samples.

Results

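Of the 2366 URI peaks in the deposited table, 460 had their midpoint inside an annotated protein-coding gene of Arabidopsis thaliana and form the subject here. The midpoint was the mean of the peak's start and end, rounded down, and a gene holding it is called a host gene. The rule used position alone, so the amount of URI signal and its change with iron (Fe) played no part in it. The 460 peaks fell in 450 host genes on chromosomes 1 to 5. The share of peaks with their midpoint in a gene ran from 17.2% on chromosome 1 to 22.3% on chromosome 2.

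DNA bound by URI was pulled down from root chromatin and sequenced (ChIP-seq) in a uri complementation line, so all groups share the uri mutant background with URI restored. Roots had sufficient or deficient Fe for 72 h, and each condition had 3 URI libraries plus 1 made with control IgG. The labels do not name the promoter driving URI, the number of lines or the plants' age. The table gives 1 mean per Fe condition and no value per library, so the spread between replicates is unknown and the only errors are the authors' own p-value and false discovery rate (FDR). Nothing says that the 3 libraries were grown separately, so these p-values may reflect technical spread only.

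URI (bHLH121) belongs to the basic helix-loop-helix (bHLH) transcription factors and acts in the response to low Fe. Proteins of this family bind DNA as pairs at short E-box sites, and regulatory sites of plant genes lie for the most part in the promoter just upstream of the transcribed part. Sites in introns, in the first transcribed bases or beyond the gene's end are also known. In Fe-deficient roots URI acts with other bHLH proteins above genes for Fe uptake and transport and above further regulators.

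Most of these peaks sat at the edge of their host rather than in its interior. The midpoint lay a median of 158.5 bp from the nearer gene end, with an interquartile range of 68.75 to 444.5 bp. It was under 100 bp from an end for 167 peaks (36.3%), although only 7.29% of the bases of these hosts lie that close to an end. Under 250 bp the shares were 60.9% of the midpoints and 18.2% of the bases. At the other extreme, 64 peaks had their midpoint 1000 bp or more from both ends. The gene table carries no strand, exons or sequence, so the start and the end of a gene could not be told apart and no motif was searched.

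**Figure D1:**
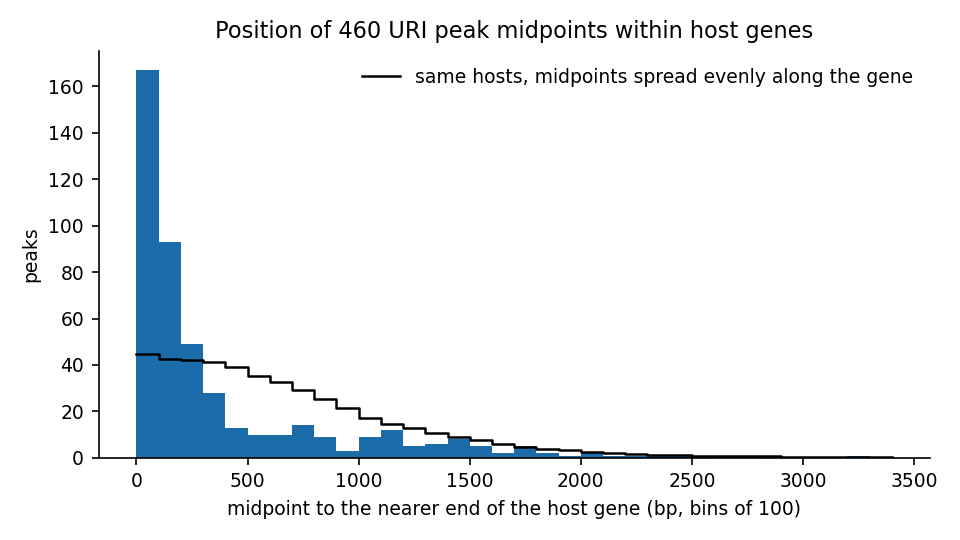
The histogram counts the 460 URI peaks (vertical axis) by distance from the midpoint to the nearer end of the host gene in bp (horizontal axis, bins of 100 bp). The black line is the count if midpoints were spread evenly along the same hosts, and the first bar holds 167 peaks.

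The host gene covered a median of 72.7% of the bases of its peak. Only 144 peaks (31.3%) lay wholly inside a gene, while 316 reached past the host and 5 of these spanned it from end to end. The peak in turn covered a median of 21.1% of its host. Of the 460 peaks, 78 (17.0%) overlapped at least 2 protein-coding genes, and 6 midpoints lay in 2 overlapping genes at once, among them 1 shared by SIM, a cell cycle inhibitor, and AT5G04475. An annotated gene of another class, such as a long non-coding RNA or a pseudogene, overlapped 25 of them (5.43%), against 9.92% of the peaks with midpoints outside genes. The next peak midpoint was within 2000 bp for 22.6% of the peaks inside genes and 20.7% of the others. On the side of the nearer end, the space up to the next protein-coding gene had a median of 1192 bp, compared with 756 bp on the other side, 1023 bp for genes within 1500 bp of a peak without a midpoint and 656 bp for all protein-coding genes. The nearer side had the longer space in 249 peaks and the shorter in 206. These shares were not tested against each other, since peaks are not replicates.

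Peaks on both sides of the gene boundary had similar values. Just inside, the midpoints at GLX1 (a glyoxalase) and GRF8 (a 14-3-3 protein) fell on the outermost base of the gene, with 10.8 and 10.1 mean reads, and that at MBD10 lay 2 bp inside with 9.92. Just outside, midpoints lay 1 bp from AT2G20080, 2 bp from RHA2B (a RING finger protein) and 3 bp from AT1G76728, with 11.6, 12.1 and 5.21 mean reads. The 167 peaks under 100 bp inside a gene had a median width of 641 bp and 9.99 reads, and the 234 peaks up to 100 bp outside had 613 bp and 9.92 reads.

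Host genes had a median length of 2460 bp (interquartile range 1738 to 3432.5 bp), compared with 2078 bp for all 27444 protein-coding genes. The 2796 genes that lay within 1500 bp of a peak without holding a midpoint had a median of 2243 bp. A longer gene offers more bases for a midpoint to fall on. The median of all genes weighted by their length was 2912 bp, above that of the hosts. That order depended on the definition of a host. With the whole peak required in the gene the median host length was 3134.5 bp, and with midpoints at least 100 bp from both ends 2645 bp. The longest hosts were AT2G08986 (8403 bp), AT3G06670 (8300 bp) and WSIP2 (8213 bp), which encodes a TOPLESS-related corepressor. The shortest were AT3G08636 (180 bp) and AT2G46308 (189 bp), each of them shorter than its peak. Across the 460 peaks, host length had almost no relation to peak width (Spearman rho of 0.0058) or to concentration (rho of 0.058).

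**Figure D2:**
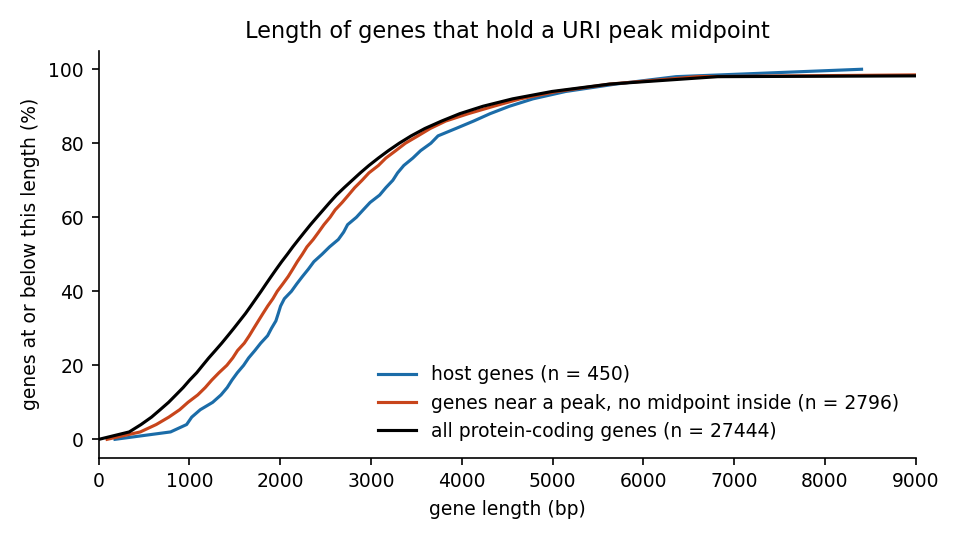
Each curve gives the percentage of genes (vertical axis) at or below a given length in bp (horizontal axis) for hosts, for genes within 1500 bp of a peak without a midpoint, and for all protein-coding genes. The curve of the hosts lies to the right of the others over most of the range, with medians of 2460, 2243 and 2078 bp.

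By the words in their annotated names, hosts covered many gene families without one that dominated. Of the 450 hosts, 26 (5.78%) carried a name of the transcription factor groups searched (WRKY, NAC, ERF or DREB, MYB, bHLH, bZIP, homeobox, zinc finger or heat shock factor), against 619 of the 27444 protein-coding genes and 4.79% of the genes near a peak without a midpoint. Kinase names were found for 16 hosts (3.56%), against 2.12% of all genes and 3.04% of the genes near a peak without a midpoint. Transporter names were found for 10 hosts (2.22%, against 1.03% and 1.47%) and F-box or ubiquitin ligase names for 7 (1.56%, against 0.248% and 0.501%). No host had bHLH in its annotated names, although PYE and MYC2 are of that family, so these counts miss genes named otherwise. For 226 hosts (50.2%) the symbol was only the locus tag, compared with 62.2% of all genes. None of these shares was tested.

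Signal at peaks inside genes was weaker, and the peaks were narrower, than elsewhere. Concentration in the deposited table was read as the log2 of mean normalised reads per peak, and reads are given here as 2 to that power. Peaks inside genes had a median concentration of 3.38 (10.4 reads) and a median width of 664 bp, and the 1906 others 3.67 (12.7 reads) and 759 bp. Wider peaks held more reads in both groups, with Spearman rho of 0.84 across the peaks inside genes and 0.91 across the others. Per kb of peak the medians were 16.3 reads inside and 16.8 outside, so the gap was smaller per length than per peak. A concentration of 5 or more was found at 16 peaks inside genes (3.48%) and at 119 others (6.24%). Low values were not particular to peaks inside genes. The 234 peaks up to 100 bp outside a gene had medians of 9.92 reads and 613 bp. These medians carry no error, because the table has no value per library.

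A few peaks inside genes were nevertheless among the strongest of the series. The highest was at AT3G56360, where mean reads were 249 on sufficient Fe and 206.5 under deficiency. Its midpoint lay 9 bp inside the gene. FER1 and FER4 encode the Fe storage protein ferritin. FER1, next in order, had 251 and 150.1 reads, and FER4, behind PYE and AT5G05250, had 83.9 and 72.0. The FER1 peak was the widest inside a gene, at 3043 bp, and reached past its host, as the midpoint lay 123 bp from the nearer end. PYE, a bHLH repressor of Fe homeostasis genes, had 111 and 176 reads, and AT5G05250 had 107 and 171. Of the 10 strongest peaks, only those at AT2G30760 and AT1G80610 lay wholly inside their host. That at AT1G80610 had 37.8 and 38.1 reads and a midpoint 1692 bp from the nearer end. The narrowest peak, at AT2G08986, was 323 bp wide and held 15.7 mean reads.

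**Figure D3:**
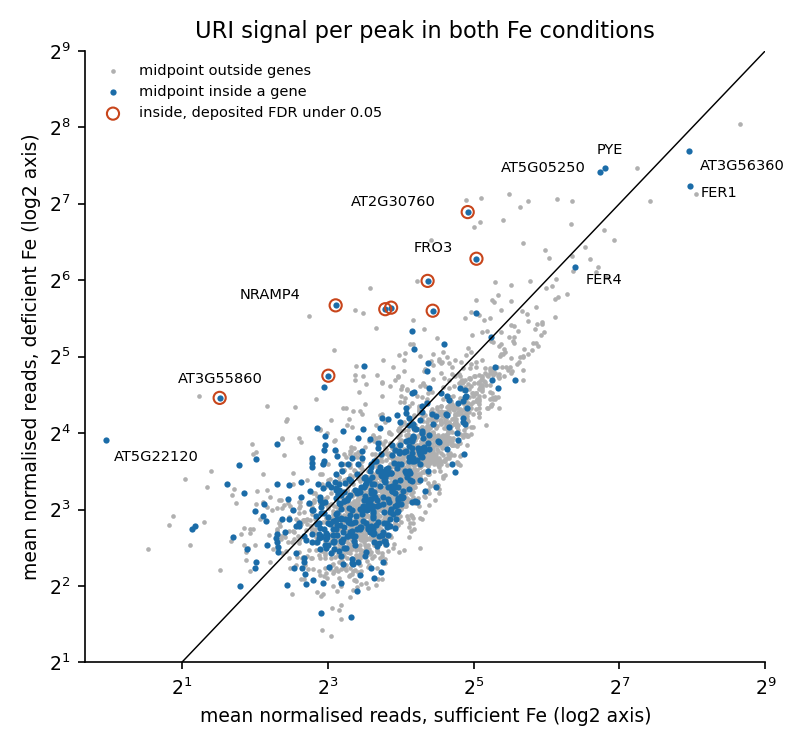
Each point is a peak, with mean normalised reads with sufficient Fe (horizontal axis) and under deficiency (vertical axis), both on log2 axes. Blue points have their midpoint inside a gene, grey points do not, the line marks equal values, and the 9 circled peaks inside genes had a deposited FDR under 0.05, all above the line.

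URI signal rose under Fe deficiency at 9 of the 190 peaks inside genes that had an adjusted FDR (4.74%) and fell at 0 of them, taking the authors' deposited table at FDR below 0.05. The background over all 1311 adjusted peaks of the authors' deposited table was 1.98% higher and 0.0763% lower, and among peaks outside genes 17 of 1121 (1.52%) were higher. The share inside genes was thus above the background, a difference that was not tested. It came mainly from peaks at gene edges. Of the 9, 8 were among the 135 adjusted peaks that reached past their host. Only 1 was among the 55 adjusted peaks that lay wholly inside a gene. Without adjustment, p-values below 0.05 in the authors' deposited table marked 23 of the 460 peaks as higher (5.0%, all peaks 3.55%) and 32 as lower (6.96%, all peaks 10.1%). The other 270 peaks inside genes were weak, with at most 11.5 reads, and their FDR was set to 1 in the authors' deposited table. All changes are deficiency minus sufficiency.

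Among the 9 peaks that rose were FRO3 and NRAMP4, both of Fe homeostasis. FRO3 encodes a ferric reductase, and its peak (chromosome 1, 8151863 to 8154302) went from 32.9 to 77.7 reads, a log2 change of 1.24 in the authors' deposited table (FDR 0.0094). The midpoint was 714 bp from the nearer end of the gene, and the peak reached past that end. Without strand, it could not be told whether that end is the start of FRO3. NRAMP4, a metal transporter that releases Fe from the vacuole, went from 8.63 to 50.9 reads (log2 2.56, FDR 2.94e-06 in the authors' deposited table). That peak (chromosome 5, 26860834 to 26861890) also overlapped 285 bp of HOS15, the gene next to it.

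The smallest p-value among peaks inside genes belonged to AT2G30760 (chromosome 2, 13106017 to 13107652), where signal went from 30.3 to 119 reads (log2 1.97, FDR 2.37e-08 in the authors' deposited table). It was the only one of the 9 that lay wholly inside its host, with the midpoint 1064 bp from the nearer end. The neighbouring gene AT2G30766, of the list of Fe-deficiency E3 ligases and peptides, overlaps AT2G30760. The peak covered 69 bp at the end of AT2G30766 that lies within AT2G30760. Which of both genes the signal belongs to cannot be told from the table.

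The other hosts of rising peaks are not in the Fe lists. These lists do not hold every gene of Fe homeostasis, so absence from them does not place a host outside it. The gene table gives AT3G55860, AT3G27590 and AT3G43660 no name, and their function was not read from it. TSO2 encodes a small subunit of ribonucleotide reductase, an enzyme that carries Fe, and its peak went from 20.7 to 63.6 reads (log2 1.63, FDR 0.000708 in the authors' deposited table). RPL16A, a ribosomal protein gene, went from 14.6 to 49.9 reads (log2 1.77, FDR 0.000311 in the authors' deposited table), with 402 bp of its peak in AT2G42750, which encodes a DnaJ protein. AT3G55860 showed the largest change among the 9, from 2.87 to 22.0 reads (log2 2.95, FDR 0.0014 in the authors' deposited table), and its midpoint was 14 bp inside the gene. The rises at AT3G27590 (13.8 to 49.2 reads, FDR 0.00148), AT3G43660 (21.7 to 48.5 reads, FDR 0.0145) and AT5G51010 (8.06 to 26.9 reads, FDR 0.0145) in the authors' deposited table had midpoints 688, 119 and 58 bp from an end. The peak at AT3G27590 was wider than that gene. Of the 9 peaks, 8 reached past an end of their host, beside 316 of all 460 peaks inside genes. The midpoint lay under 100 bp from an end in 3 and 100 to under 250 bp in 3 more. Among all 460 peaks these classes held 167 and 113.

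**Figure D4:**
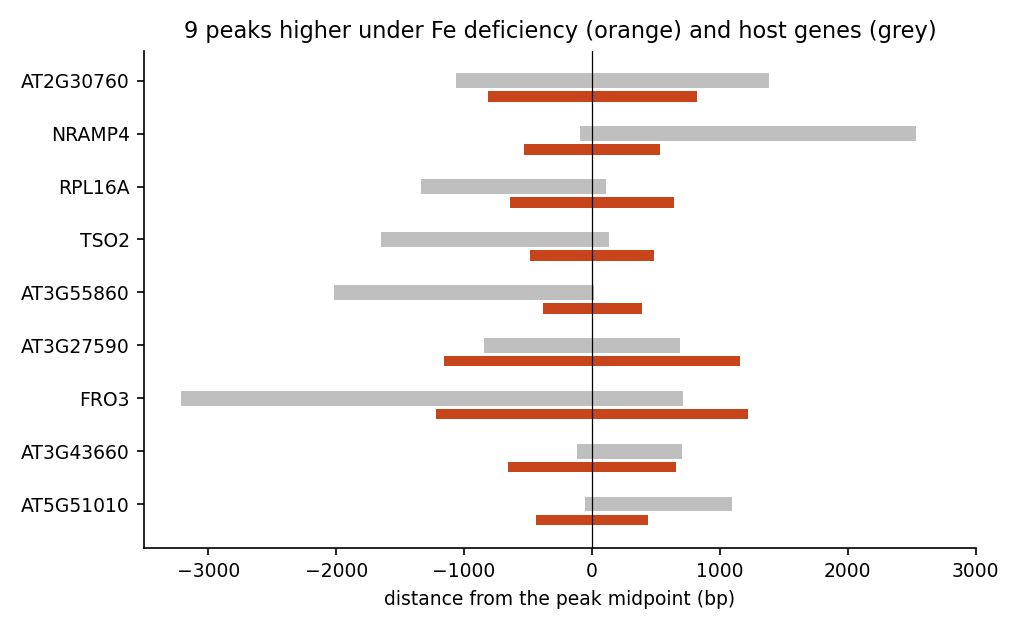
For the 9 peaks that rose under Fe deficiency, orange bars show the peak and grey bars the host gene, placed by distance from the peak midpoint in bp (horizontal axis) and ordered by deposited FDR. The bar of AT2G30760 is the only grey bar that contains its whole peak, and 8 peaks reach past their host.

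Several further peaks inside genes changed in the same direction without passing the adjustment. The peak at AT5G22120 had the largest change of all, from 0.973 to 15.0 reads (log2 3.95, p = 2.58e-06 in the authors' deposited table), but its FDR was set to 1 there at a mean of 8.0 reads. It was named after its values were seen. Adjusted over all 2366 peaks by Benjamini-Hochberg, 10 peaks inside genes were higher (background 1.1%), the 9 and AT5G22120. FED A, which encodes ferredoxin 2, an Fe-S electron carrier, had 17.9 and 40.5 reads (log2 1.18, FDR 0.0991 in the authors' deposited table). LAF3, a gene of light signalling, lies beside AT3G55860 and had 7.73 and 24.3 reads (log2 1.64, FDR 0.105 in the authors' deposited table). BAM7, a beta-amylase-like gene, had 11.3 and 29.4 reads (log2 1.39, FDR 0.268 in the authors' deposited table).

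Among adjusted peaks the largest decreases were smaller than the largest increases, and none passed an FDR of 0.05. The largest was at AT2G47485, from 26.7 to 11.2 reads (log2 -1.25, FDR 0.0813 in the authors' deposited table). TET2, a tetraspanin gene, had 22.5 and 9.85 reads (log2 -1.19, FDR 0.229 in the authors' deposited table), AT2G43140 29.2 and 13.3 reads (log2 -1.13, FDR 0.142) and NIP5;1, a boric acid channel, 26.2 and 12.1 reads (log2 -1.11, FDR 0.121). These last peaks lay wholly inside their hosts, with midpoints 1498, 1151 and 2030 bp from an end. The protein kinase gene CIPK17 had a similar position (1060 bp) and 17.8 and 8.57 reads (log2 -1.05, FDR 0.241 in the authors' deposited table). The remaining 5 of the 10 largest decreases, at AT5G03380, AT1G49500, AT5G46080, ASG1 and AT3G13120, had changes of -1.13 to -0.98 in the authors' deposited table and midpoints 3 to 144 bp from an end.

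Most peaks inside genes leaned lower under deficiency, as most peaks of the series did. In the authors' deposited table the median log2 change was -0.35 over the 460 peaks (interquartile range -0.64 to 0.05), with 334 lower and 121 higher, and -0.49 over the others, with 18.3% higher against 26.3% inside genes. Relative to the median of all peaks, -0.46, the median inside genes was 0.11 and that outside was -0.03. The gap was present in each of 3 classes of concentration. From low to high, median changes in the authors' deposited table were -0.31, -0.41 and -0.27 inside genes and -0.50, -0.54 and -0.44 outside. At the gene boundary the gap was small. The median change was -0.35 for the 167 peaks under 100 bp inside a gene and -0.39 for the 234 up to 100 bp outside. Recentred on the median peak, using an error derived from each deposited p-value, 15 peaks inside genes passed an FDR of 0.05 as higher (7.89%, background 4.81%) and 0 as lower. The 6 added to the 9 were FED A, LAF3, PYE, AT5G05250, AT4G37420 and AtLEA4-1, a gene for a late embryogenesis abundant protein.

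**Figure D5:**
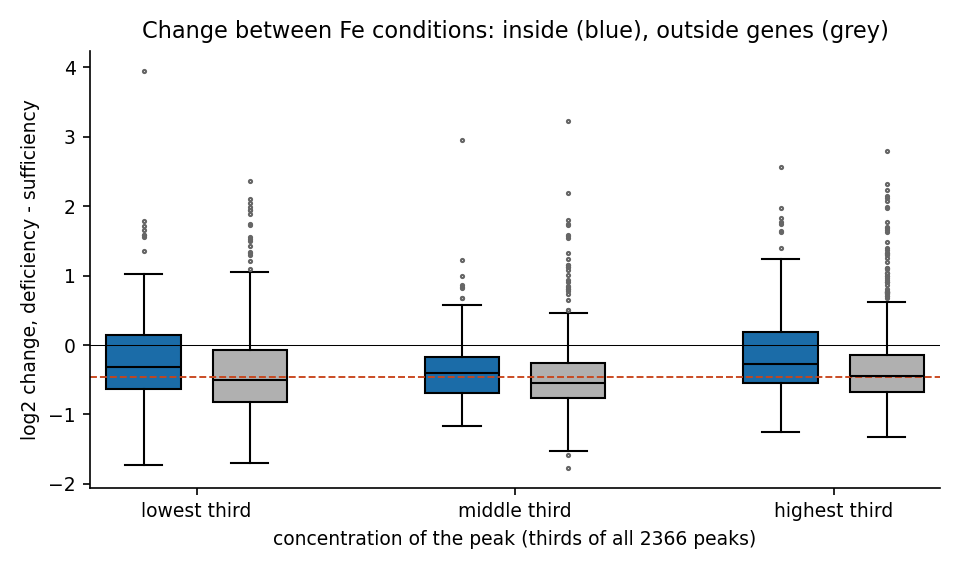
Boxes show the log2 change (deficiency minus sufficiency, vertical axis) for peaks inside genes (blue) and outside (grey) in 3 classes of concentration of all 2366 peaks. Boxes span the quartiles with the median as a line, whiskers reach 1.5 times the box, points lie beyond, the dashed line marks the median of all peaks (-0.46), and the blue median is the higher one in each class.

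Across the 460 peaks the change had almost no relation to the distance from the gene end (Spearman rho of -0.045), and no test was made between classes of distance. For the 64 peaks with midpoints 1000 bp or more from both ends, the median change in the authors' deposited table was -0.505, with 10.9% higher under deficiency, close to the median of -0.49 of peaks outside genes. For those under 100 bp, 100 to 250 bp, 250 to 500 bp and 500 to 1000 bp from an end it was -0.35, -0.30, -0.19 and -0.39, with 25.7%, 28.3%, 38.6% and 26.1% higher. Peaks wholly inside a gene had a median change of -0.425 and those reaching past it -0.30. By host length, the median change in the authors' deposited table was -0.22 in the shortest of 3 classes (up to 1966 bp), with 37.7% higher, and -0.405 in the longest (over 3131 bp), with 15.6% higher. Length and depth move together, since only a long gene can hold a deep midpoint, and their parts were not separated. The deepest midpoint was at TGA4, a bZIP factor gene, 3291 bp from an end, with 27.7 and 15.0 reads (log2 -0.88, p = 0.0261, FDR 0.241 in the authors' deposited table). Next came AT3G52700 (2795 bp), CSLA02, a mannan synthase gene (2698 bp), SOS3, a Ca sensor gene (2432 bp), and ADR1-L1, an immune receptor gene (2365 bp), with changes of -0.56, -0.41, -0.85 and -0.78 in the authors' deposited table and no FDR under 0.05.

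Of all 27444 protein-coding genes, 450 were hosts. Of the 56 genes in the 4 Fe lists, 8 were hosts, and 14 had a peak inside a gene, their own or another, within 1500 bp. These lists were chosen with earlier results of these data known, so the counts are a description. Counting peaks outside genes too, 8 of 14 transcription factors and 5 of 6 E3 ligases and peptides had a peak that close. So did 7 of 11 uptake and coumarin genes and 15 of 25 transport and storage genes. In the authors' deposited table, FRO3 and NRAMP4 rose, PYE had a log2 change of 0.66 (FDR 0.247), the vacuolar Fe transporter-like gene VTL2 (AT1G76800) 1.0 (FDR 0.269) and VTL5 (AT3G25190) 0.33 (p = 0.613). NEET, an Fe-S protein gene, had 2.20 and 6.68 reads (log2 1.59, p = 0.0436 in the authors' deposited table). FER1 and FER4 were the only hosts of these lists with values below 0, at -0.74 (FDR 0.327) and -0.21 (FDR 0.649) in the authors' deposited table, and relative to the median peak FER4 was at 0.25. The other 6 genes had their peak in a neighbour. The peak for bHLH11 had its midpoint in AT4G36050 and overlapped bHLH11, and that for AT2G30766 lay in AT2G30760. Peaks near FRO2 (ferric reductase), NRAMP1 and NRAMP6 (metal transporters) and IREG1 (ferroportin 1) had their midpoints in AT1G01570, CCR2, CCR1 and AT2G38465, with 334 to 773 bp between peak and Fe gene. CCR1 and CCR2 encode cinnamoyl-CoA reductases of lignin synthesis. Changes at these peaks in the authors' deposited table were 0.54, 0.17, -1.09 and -0.47, and 0.68 at that for bHLH11, none with an FDR under 0.05.

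Hosts whose proteins bind Fe were looked at as a group chosen after the values were seen, so their values are a description. The group may leave out such hosts, and its counts depend on that choice. Of 25 peaks in 24 such hosts, 12 had changes above 0 in the authors' deposited table, with a median of -0.04, compared with 121 of 460 (26.3%) and -0.35 for all peaks inside genes. The TSO2 and FRO3 peaks described above are the 2 of the 25 that rose. Beside them stand 9 of all 460 peaks inside genes and 1.1% of all 2366 peaks of the series. Hosts for proteins that handle oxygen or its reduced forms lay on both sides of 0, with log2 changes in the authors' deposited table of 0.57 for APX1 and 0.36 for SAPX (ascorbate peroxidases), 0.50 for FSD1 (Fe superoxide dismutase) and 0.46 for GLB3 (a haemoglobin). In the authors' deposited table AOX1A (alternative oxidase) had -0.52 and RBOHD (NADPH oxidase) -0.56, while ACO3, an Fe-S aconitase, had 0.34. None of these passed an FDR of 0.05. Of the 6 cytochrome P450 hosts 5 were below 0, near the share of all peaks inside genes (72.6%), from -1.06 for CYP94C1, which breaks down jasmonate, to -0.16 for DWF4 of brassinosteroid synthesis in the authors' deposited table, and CYP97B3 had 1.36 there (p = 0.0717).

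Hormone and nitrogen hosts made up other groups, also named after their values were seen. The WRKY and heat shock factor groups below were instead set by words in the annotated names. Of jasmonate hosts, 5 picked by hand (AOC4, MYC2, CYP94C1, JAZ3 and CYP94B1) had changes of -1.06 to -0.27 in the authors' deposited table. MYC2, the main transcription factor of the pathway, had 20.7 and 14.6 reads. Of all 460 peaks inside genes, 72.6% were below 0. ILL6 was not counted in this group and went the other way, with 4.06 and 12.6 reads (log2 1.65, p = 0.0106 in the authors' deposited table). Peaks in the 8 nitrogen hosts had changes of -1.03 to 0.03 in the authors' deposited table, with a median of -0.215 and 2 above 0. Among them NLP7, a nitrate-sensing transcription factor, had 28.8 and 21.4 reads, and LBD37, a repressor of nitrate genes, 20.5 and 21.0. For the brassinosteroid receptor genes BRI1 and BRL3, the authors' deposited table gave changes of -0.80 and -0.36. The 5 peaks in WRKY hosts ranged from -1.47 (WRKY11) to -0.20 (WRKY69), and those in heat shock factor hosts from -0.61 to -0.03. None of the peaks in these groups passed an FDR of 0.05.

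In 16 hosts 2 midpoints fell in the same gene, and no host held more. The midpoints of a pair were 599 to 1919 bp apart (median 1420.5 bp), and in 10 of the 16 hosts they were nearest to opposite ends. HSFB2A, a heat shock factor gene, had 1 peak at each end with 9.85 and 12.3 mean reads and changes of -0.54 and -0.57 in the authors' deposited table. MIZ1, a gene needed for roots to grow toward water, had 17.8 and 23.3 mean reads with changes of -0.30 and -0.04. TSO2 had the pair that differed most: the peak at one end rose (log2 1.63), whereas the other, with 9.78 mean reads, had a log2 change of 0.35, with FDR 1, in the authors' deposited table. Both peaks of a pair were lower under deficiency in 13 hosts and both were higher in 2, TSO2 and EXL2, an EXORDIUM-like gene, while at AT1G80610 the values were 0 and 0.23. The changes of a pair differed by a median of 0.30 (log2), and no test of these differences could be made without values per library.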

How the data were processed

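The 8 libraries were grouped by their titles. The submitters' processing notes name TAIR10 as the genome and, in no stated order, MACS2, DiffBind, bedtools 2.26.0, Picard 2.4.1, SAMtools 1.3.1, Bowtie 1.2.2 and Trimmomatic 0.33; settings, normalisation and the use of IgG were not given there. The authors deposited 1 table of log2 concentrations, a log2 fold and, per peak, a p-value and FDR from an unnamed test. Depth is unknown. The deposited log2 fold is sufficiency minus deficiency (within 0.01), and its sign was turned here.

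RefSeq genes (assembly TAIR10.1) decided which peaks lay inside a gene. They also gave the names, lengths, ends and spacing of hosts and neighbours. Positions and medians were computed with pandas 2.3.3. Host assignment and recentring were tested on simulated data, and the Benjamini-Hochberg adjustment was compared with another implementation. No test was made over peaks. For recentring on the median peak, errors were derived from the deposited p-values (normal approximation; for changes under 0.2, the median error over 101 peaks of like concentration).

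The members and lists were chosen with earlier results of these data known. Named peaks are those with an FDR under 0.05, those of the Fe lists or within 1500 bp of them, the 10 strongest, the 10 largest changes each way among adjusted peaks, hosts of 2 peaks, extremes of host length, width and depth, and those at the gene boundary; other genes were named after their values were seen.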

Additional observations from a re-analysis of the deposited data

How the results depend on the processing

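Over 7 results, 27 of 35 alternative values were of similar size or sign. Requiring the whole peak in a gene left 144 peaks, 55 of them with an adjusted FDR. Of these 55, 1 was higher under deficiency (AT2G30760), beside 1.98% of all adjusted peaks. Requiring 100 bp between midpoint and gene ends left 293. An FDR under 0.1 gave 1 lower peak in place of 0. Recentring on the median peak, an alternative chosen after the data were seen, gave 15 higher peaks in place of 9, and turned the median change from -0.35 to 0.11, since it adds 0.46 to every change. The mean in place of the median gave a change of -0.232 and a concentration of 3.50. The cause of the differences between mean and median was not tested. No paired analysis was possible because the table holds no value per library, and leaving out replicates was not run for the same reason. Low reads limit the 270 peaks without an adjusted FDR.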
